A study of Mus musculus with 20 samples.

Results

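The genes described here are 35 transcripts characteristic of microglia, the resident macrophages of the brain, measured in brain RNA. They were chosen by name, as rows of the expression table carrying the symbol of a microglia gene, and all 35 listed symbols were found among the 17211 genes of the table. Brain RNA was sequenced from 10 C57BL/6 mice and 10 *Winnie* mice, each aged 14 weeks and drawn from the same breeding colony. *Winnie* mice carry a missense mutation of *Muc2*, the gene of the main intestinal mucin, and develop chronic colitis without any chemical treatment. The mutation is carried by the whole animal, no other allele or agent was given to either group, and the sources used here do not name a brain region. Each sample was the brain of 1 mouse, and the labels give 5 females and 5 males per genotype. The comparison addressed here is how the level of these genes in *Winnie* mouse brains compared to that in brains from C57BL/6 mice.

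Microglia survey the brain with receptors for nucleotides and chemokines, clear debris and synapses with the help of complement and Fc receptors, and degrade what they engulf in lysosomes. Their survival depends on signaling through the receptor CSF1R, and their identity is maintained by transcription factors that include PU.1, encoded by *Spi1*, IRF8 and SALL1. Because microglia are a minority of brain cells, their transcripts in bulk brain RNA are diluted by those of neurons and other glia. In such bulk samples, fewer microglia and less RNA per microglial cell cannot be told apart.

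Values are CPM, the reads of a gene divided by the total reads of its sample and scaled to the same sum in every sample. Total reads were 16540303 to 23923769 per brain, and the 35 genes were covered by 23 to 2308 reads per gene and brain. The lowest of these counts belonged to *Aif1*, so its values carry the largest counting error. The sex labels were compared with the X-linked transcript *Xist* and the Y-linked transcript *Ddx3y*. They went with the label in all 10 *Winnie* brains and against it in 9 of 10 C57BL/6 brains, of which 6 had *Xist* above *Ddx3y* and 4 the reverse. No test compared C57BL/6 brains by sex label, these labels entered only 1 alternative fit as a covariate, and values within brains of like *Xist* and *Ddx3y* pattern are given where they bear on a result. Sample names end in an S number, which ran from 1 to 10 for C57BL/6 and from 11 to 20 for *Winnie* mice. The sources used here do not say what it counts, and any order it follows cannot be told apart from genotype. All 10 marker genes of each of neurons, astrocytes, oligodendrocytes, and endothelial and mural cells were measured, as the tissue label requires.

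PU.1 recognizes a purine-rich sequence around a GGAA core, and the promoters of the microglia genes were searched for one such form. RefSeq promoters (GRCm38.p6) were matched for 26 of the 35 genes, and the 250 bases upstream of the start were read on both strands. The form GAGGAAG was present upstream of 9 of the 26 (34.6%), namely *C1qc*, *Fcgr3*, *Fcrls*, *Hpgds*, *Inpp5d*, *Itgam*, *Laptm5*, *P2ry13* and *Trem2*, against 12.9% of the 11714 genes of the table with a promoter. The longer form GAGGAAGT, which contains the shorter one, was present in 3 of the 26 (11.5%), *C1qc*, *Hpgds* and *Inpp5d*, against 2.64% of all. A match of letters is a description and does not show binding. The stretch read around the form lay wholly in annotated exon for *Laptm5* and *Hpgds* (100 of 100 bases each). It did so in part for *C1qc* (151 of 214), *Fcrls* (86 of 164) and 1 stretch of *Fcgr3* (9 of 100). For these genes, upstream refers to the RefSeq start only. The 100 bases before the start of *Inpp5d* are shown because they hold the longer form, and those of *P2ry13* and *Trem2* because these genes were among the 4 with the smallest p of the genotype comparison. *Itgam* is added as the gene of a classical microglia surface marker. Sequences read 5′ to 3′ in the direction of the gene, and capitals mark the form or, as CTTCCTC, its reverse complement.
Inpp5d, chr1:87620212-87620311, plus strand: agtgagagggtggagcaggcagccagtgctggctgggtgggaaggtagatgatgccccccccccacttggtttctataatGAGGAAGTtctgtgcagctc
P2ry13, chr3:59210883-59210982, minus strand: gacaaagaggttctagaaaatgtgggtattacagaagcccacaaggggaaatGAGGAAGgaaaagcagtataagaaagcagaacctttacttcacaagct
Trem2, chr17:48346301-48346400, plus strand: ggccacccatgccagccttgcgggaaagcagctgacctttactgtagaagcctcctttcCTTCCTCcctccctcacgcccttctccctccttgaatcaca
Itgam, chr7:128062540-128062639, plus strand: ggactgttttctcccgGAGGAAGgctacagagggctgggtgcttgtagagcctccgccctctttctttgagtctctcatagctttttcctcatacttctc

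Levels of the microglia genes spanned a wide range. Per length, as mean CPM per kb of exon over all 20 brains, the highest level was that of *Lgmn*, the lysosomal protease legumain, at 43.5. The complement genes *C1qb* (36.1) and *C1qa* (31.1), the lysosomal protease gene *Ctss* (28.9) and the third complement chain *C1qc* (15.2) followed. *Tyrobp* (14.6), *P2ry12* (14.5), *Csf1r* (12.96), *Laptm5* (11.5) and *Cx3cr1* (10.7) completed the leading 10. The transcription factor gene *Irf8* (0.614) and *Ptprc* (0.169), which encodes the pan-leukocyte phosphatase CD45, were the lowest. Exon lengths join all annotated exons of a gene, so a gene with a long or rarely used exon is placed low on this scale.

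**Figure D1:**
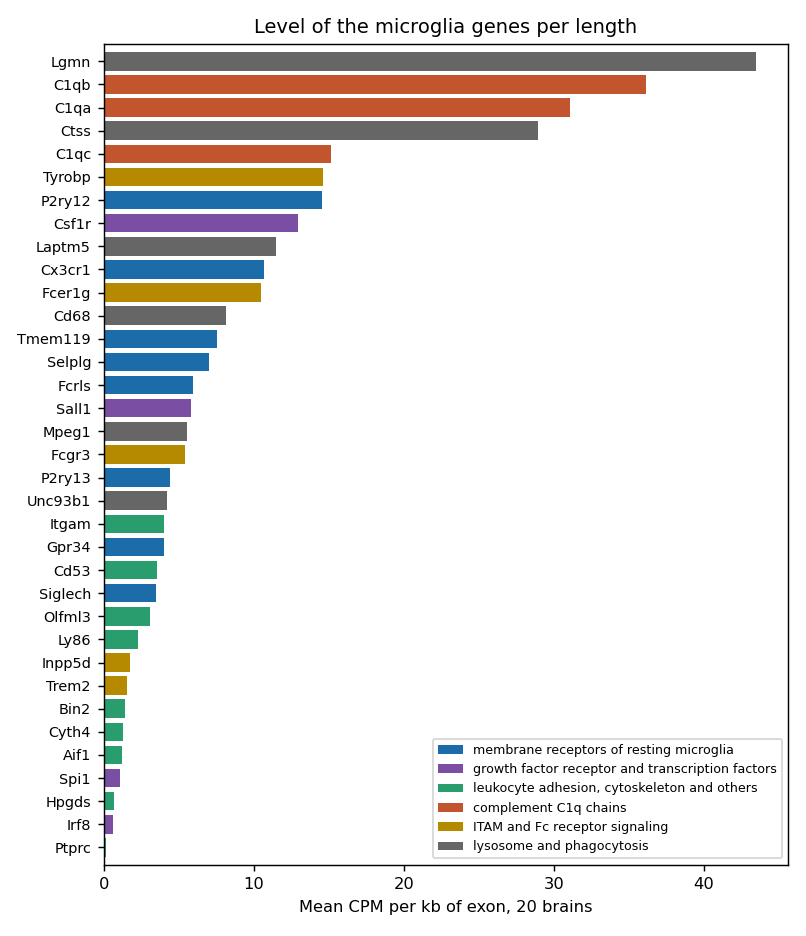
Bars show the mean CPM per kb of annotated exon over the 20 brains for each of the 35 microglia genes, colored by role. *Lgmn*, *C1qb*, *C1qa* and *Ctss* stand above the rest, and values run from 43.5 for *Lgmn* to 0.169 for *Ptprc*.

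None of the 35 microglia genes differed between genotypes at an FDR under 0.05 (limma on log2(CPM + 0.5), Benjamini-Hochberg over all genes), where 2.52% of all genes were called. The study's methods set an FDR under 0.001 and a fold of at least 1.5 either way in edgeR. With these cut-offs applied to limma, the count was likewise 0, against 0% of all genes. The lowest limma FDR of any gene was 0.00108, and the cut-offs were not applied to edgeR. The direction was nevertheless uneven, since 27 genes had a lower mean and 8 a higher mean in *Winnie* mouse brains, and 77.1% below the control compares with 49.0% of all genes. The median log2 fold change was -0.086, against 0.0022 over all genes. An unadjusted p under 0.05 was reached by 8 genes (22.9%), against 17.6% of all genes, and all 8 were lower in *Winnie* mouse brains, against 8.08% of all genes with such a p and that direction. edgeR on the recovered reads gave 0 genes at an FDR under 0.05 and the same 8 genes at an unadjusted p under 0.05. DESeq2 called 1 gene, *Fcrls* (FDR 0.0220), and gave 9 at an unadjusted p under 0.05.

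The call also depended on single brains. Leaving out C57BL/6 replicate 1 brought *P2ry13* (FDR 0.0274) and *Fcrls* (FDR 0.0485) under 0.05 in limma, and *Fcrls* alone was under 0.05 without C57BL/6 replicate 2, C57BL/6 replicate 6, *Winnie* replicate 4 or *Winnie* replicate 9. Log2 fold changes ranged from -0.27 for *P2ry13* to 0.084 for *Inpp5d*. The 95% intervals of all 35 lay within a 1.5-fold difference in either direction, with a lowest bound of -0.47 and a highest of 0.21.

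**Figure D2:**
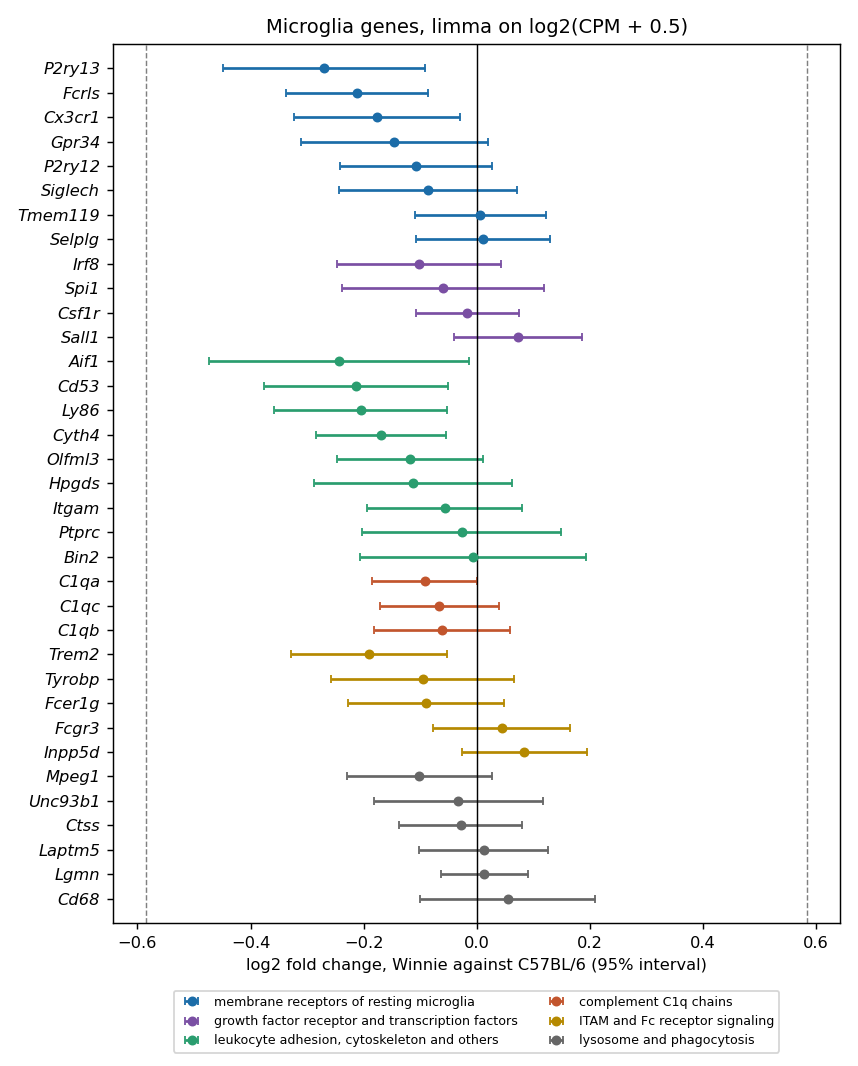
Points show the limma log2 fold change of each microglia gene, *Winnie* against C57BL/6 (10 brains each), with 95% intervals, grouped and colored by role. Dashed lines mark a 1.5-fold difference in either direction, which no interval reaches, and 27 of the 35 points lie below 0.

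The mean of centred log2(CPM + 0.5) over the 35 genes was taken as 1 value per brain. In brains from C57BL/6 mice it ran from -0.060 to 0.106 with a median of 0.045, and in *Winnie* mouse brains from -0.157 to 0.177 with a median of -0.075. *Winnie* brains thus held both the lowest and the highest value of the 20, and the groups overlapped. The mean was 0.0398 ± 0.0540 (SD, n = 10) for C57BL/6 and -0.0398 ± 0.112 (SD, n = 10) for *Winnie* mice, a difference of -0.080 (SE 0.0392), which corresponds to -5.37%. Below the C57BL/6 median lay 7 of 10 *Winnie* brains, and the other 3 were replicate 5 at 0.065, replicate 10 at 0.084 and replicate 9 at 0.177. *Winnie* replicate 9 had the highest CPM of all 20 brains in 8 of the 35 genes and replicate 5 in 7. The lowest brains were *Winnie* replicate 7 at -0.157 and replicates 3 and 6, both at -0.140. Among C57BL/6 brains the lowest was replicate 1 at -0.060. Within brains with *Xist* above *Ddx3y* (6 C57BL/6 and 5 *Winnie*) the difference was -0.093, and within those with *Ddx3y* above *Xist* (4 and 5) it was -0.069. In each of these subsets 27 of the 35 genes were lower in *Winnie* mouse brains. Median log2 fold changes were -0.074 and -0.040, against -0.00066 and 0.0053 over all genes. Lower in both were 23 genes, but with 27 lower in each subset many had to be shared. The genes also varied together across brains, so these counts are not independent.

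**Figure D3:**
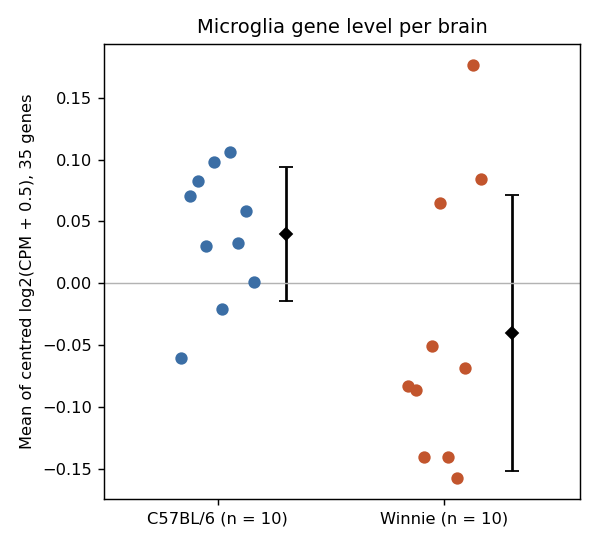
Each point is 1 brain, the y axis is the mean of centred log2(CPM + 0.5) over the 35 microglia genes, and diamonds with bars show mean ± SD of the 10 brains. *Winnie* brains spread from -0.157 to 0.177 and enclose the C57BL/6 range of -0.060 to 0.106.

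**Figure D4:**
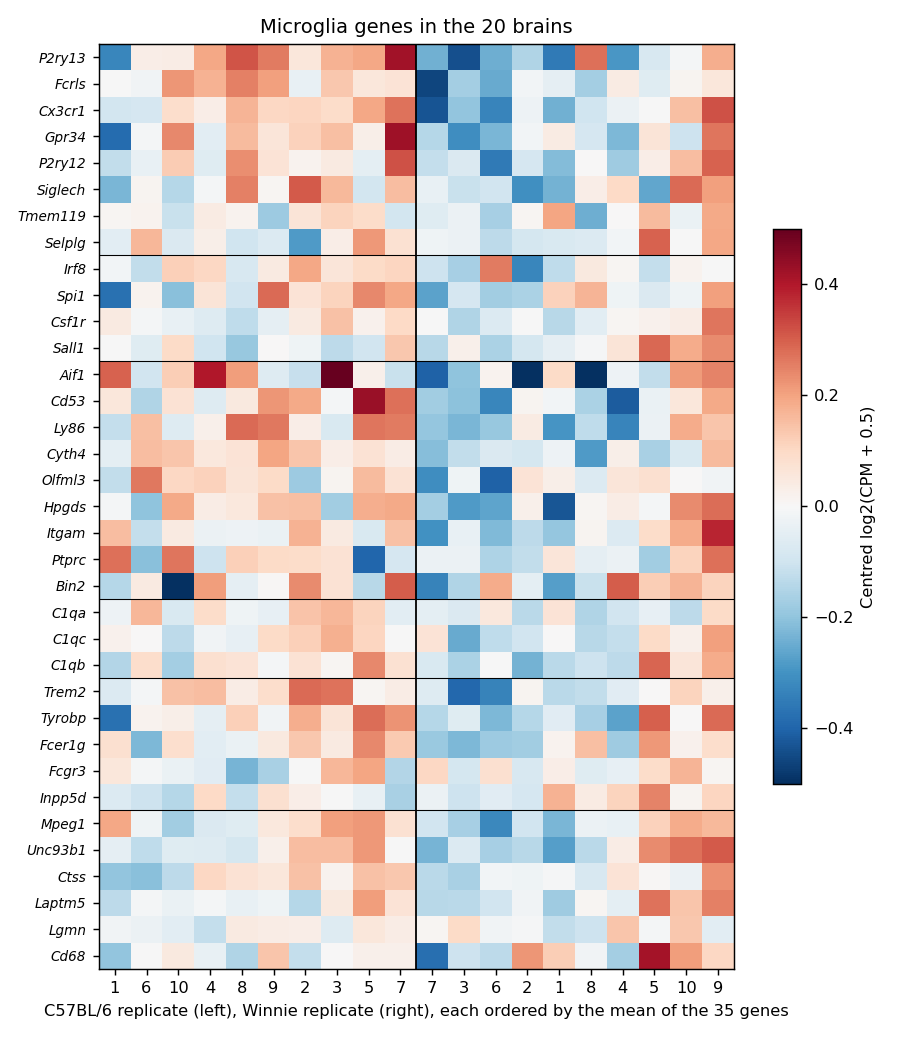
Color shows log2(CPM + 0.5) of each gene minus its mean over the 20 brains, limited to 0.5 on either side. Rows are genes grouped by role, and columns are brains ordered within genotype by the mean of the 35 genes. *Winnie* replicates 10 and 9 at the right are high in most rows while replicates 7, 3 and 6 are low. *Winnie* replicate 5 is high mainly in the C1q, Fc receptor signaling and lysosome rows, with a mean of -0.026 over the leukocyte adhesion group.

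Membrane receptors by which resting microglia sense their surroundings held the gene with the smallest p and the gene with the largest difference of the 35. Of these 8 genes, 6 were lower in *Winnie* mouse brains (75.0%, against 49.0% of all genes), with a median log2 fold change of -0.13. An unadjusted p under 0.05 was reached by 3 (37.5%, against 17.6% of all genes). *Fcrls*, an Fc receptor-like scavenger receptor gene used as a microglia signature, ranged from 13.5 to 16.6 CPM in brains from C57BL/6 mice (median 14.9) and from 9.93 to 14.4 CPM in *Winnie* mouse brains (median 13.3). Every *Winnie* value lay below the C57BL/6 median and 6 lay below the lowest C57BL/6 value, but the ranges overlapped. Its log2 fold change was -0.21 (SE 0.0615, limma p = 0.00177, FDR 0.0579).

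*P2ry13*, the gene of an ADP receptor that lies beside *P2ry12* on chromosome 3, ranged from 8.68 to 14.9 CPM in brains from C57BL/6 mice (median 12.5) and from 7.99 to 13.4 CPM in *Winnie* mouse brains (median 9.54). The C57BL/6 minimum was set by replicate 1, and the next C57BL/6 brain was at 11.3 CPM, above 8 of the 10 *Winnie* brains. The log2 fold change was -0.27 (SE 0.0874, limma p = 0.00439, FDR 0.0868). In brains with *Xist* above *Ddx3y* it was -0.47 (FDR 0.0260), from 12.9 ± 1.42 CPM (SD, n = 6) to 9.12 ± 0.975 CPM (SD, n = 5). In those with *Ddx3y* above *Xist* the values were 11.3 ± 1.83 CPM (SD, n = 4) and 11.1 ± 1.91 CPM (SD, n = 5), a log2 fold change of -0.031 (FDR 0.944). The difference between these fold changes, an interaction chosen after the values were seen, was -0.44 (SE 0.159, limma FDR 0.730) and did not pass the threshold. No microglia gene had an interaction at an FDR under 0.05, against 0.00581% of all genes. At an unadjusted p under 0.05 there was an interaction for 2 of 35 (5.71%), *P2ry13* and *Tmem119*, a share near the 5.9% of all genes.

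*P2ry12*, the ADP receptor gene that guides microglial processes toward injury, ranged from 33.8 to 46.0 CPM in C57BL/6 (median 37.6) and from 28.7 to 45.2 CPM in *Winnie* mouse brains (median 34.8). Its log2 fold change of -0.11 (SE 0.0657, FDR 0.409) did not pass the test, and *P2ry12* shares exonic positions with *Med12l* on the other strand. *Cx3cr1* likewise overlaps *Gm33858* and *Csf1r* overlaps *Hmgxb3* on the other strand, and reads of these pairs cannot be told apart if strand was not used in counting. *Itgam* overlaps *Gm49368* on its own strand, where reads of shared exons cannot be assigned by strand. The ratio of *P2ry13* to *P2ry12* CPM within a brain was 0.319 ± 0.0318 (SD, n = 10) in C57BL/6 and 0.283 ± 0.0363 (SD, n = 10) in *Winnie* mouse brains. *Cx3cr1*, the receptor gene for the neuronal chemokine fractalkine, ranged from 44.7 to 57.6 CPM in C57BL/6 (median 51.0) and from 35.3 to 59.6 CPM in *Winnie* mouse brains (median 45.6). Below the C57BL/6 median lay 8 *Winnie* brains, whereas *Winnie* replicate 9 held the highest value of the 20. The log2 fold change of *Cx3cr1* was -0.18 (SE 0.0713, limma p = 0.0204, FDR 0.185).

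*Tmem119*, a membrane protein gene widely used to tell microglia from blood-derived macrophages, ranged from 15.2 to 18.8 CPM in C57BL/6 (median 17.6) and from 14.6 to 19.998 CPM in *Winnie* mouse brains (median 17.2). The difference of 0.0061 (SE 0.0566, FDR 0.974) had a 95% interval from -0.11 to 0.12. The sign of so small a value turned with the brains used. It was 0.12 (SE 0.0712, limma FDR 0.606) within brains with *Xist* above *Ddx3y* and -0.13 (SE 0.0859, limma FDR 0.506) within those with *Ddx3y* above *Xist*, and the interaction was 0.25 (SE 0.108, limma FDR 0.808). The lysophospholipid receptor gene *Gpr34* (mean 8.36 CPM over all brains), the lectin gene *Siglech* (11.7 CPM) and the selectin ligand gene *Selplg* (30.1 CPM) had log2 fold changes of -0.15, -0.086 and 0.010.

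The growth factor receptor and the transcription factors that set microglial identity showed no difference that passed the test. *Csf1r* ranged from 68.3 to 82.8 CPM in C57BL/6 (median 74.9) and from 67.2 to 89.8 CPM in *Winnie* mouse brains (median 74.6), with a log2 fold change of -0.016 (SE 0.0444, FDR 0.895) and a 95% interval from -0.11 to 0.074. *Sall1*, a factor that within the brain's immune cells is restricted to microglia, ranged from 26.6 to 33.5 CPM in C57BL/6 (median 29.5) and from 27.2 to 37.2 CPM in *Winnie* mouse brains (median 30.6). Its log2 fold change was 0.073 (SE 0.0557, FDR 0.529). *Irf8* ranged from 3.92 to 5.00 CPM in C57BL/6 (median 4.58) and from 3.33 to 5.26 CPM in *Winnie* mouse brains (median 4.14). Below the C57BL/6 median lay 9 of its 10 *Winnie* values, at a log2 fold change of -0.10 (SE 0.0713, FDR 0.482). *Spi1* ranged from 2.16 to 3.68 CPM in C57BL/6 (median 3.10) and from 2.36 to 3.47 CPM in *Winnie* mouse brains (median 2.83), a log2 fold change of -0.060 (SE 0.0875, FDR 0.777).

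The chains of C1q, the recognition molecule of the classical complement pathway that tags synapses and debris, are encoded side by side on the minus strand of chromosome 4 (GRCm38, 136880129 to 136898803). *C1qa* ranged from 30.6 to 36.3 CPM in C57BL/6 (median 33.1) and from 29.0 to 34.4 CPM in *Winnie* mouse brains (median 30.9), with 7 *Winnie* brains below the C57BL/6 median. *C1qb* ranged from 34.7 to 46.3 CPM (median 41.1) and from 33.1 to 47.9 CPM (median 36.7). *C1qc* ranged from 26.6 to 33.1 CPM (median 29.4) and from 24.4 to 33.8 CPM (median 28.3). All 3 chains were thus slightly lower on average and their ranges overlapped. Log2 fold changes were -0.092 (SE 0.0453, FDR 0.288) for *C1qa*, -0.062 (SE 0.0588, FDR 0.632) for *C1qb* and -0.066 (SE 0.0518, FDR 0.544) for *C1qc*. The mean ratio between chains within a brain differed between genotypes by less than its SD. *C1qb* over *C1qa* was 1.20 ± 0.0897 (SD, n = 10) in C57BL/6 and 1.23 ± 0.140 (SD, n = 10) in *Winnie* mouse brains, and *C1qc* over *C1qa* was 0.899 ± 0.0531 and 0.917 ± 0.0788 (SD, n = 10 each).

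Receptors that signal through immunoreceptor tyrosine-based activation motifs included *Trem2*, the gene of a lipid-sensing receptor, and *Tyrobp*, that of its adaptor DAP12. *Trem2* ranged from 7.401 to 9.58 CPM in C57BL/6 (median 8.15) and from 5.81 to 8.44 CPM in *Winnie* mouse brains (median 7.43). Below the C57BL/6 median lay 9 *Winnie* brains and below its lowest value 4, with a log2 fold change of -0.19 (SE 0.0674, limma p = 0.00831, FDR 0.119). *Tyrobp* ranged from 7.35 to 11.8 CPM in C57BL/6 (median 9.99) and from 7.93 to 11.99 CPM in *Winnie* mouse brains (median 8.97), a log2 fold change of -0.096 (SE 0.0790, FDR 0.570). *Fcer1g*, the common Fc receptor gamma chain gene (mean 9.16 CPM), *Fcgr3*, a low-affinity IgG receptor gene (9.43 CPM), and *Inpp5d*, the gene of the inhibitory phosphatase SHIP1 (13.4 CPM), had log2 fold changes of -0.090, 0.044 and 0.084. In this group of 5 genes, 3 were lower and *Trem2* alone had an unadjusted p under 0.05.

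Genes of lysosomes and phagocytosis were the most evenly divided, with 3 lower and 3 higher, none at an unadjusted p under 0.05, and a median log2 fold change of -0.0078. *Cd68*, the lysosomal glycoprotein gene often read as a sign of phagocytic activity, ranged from 8.82 to 11.3 CPM in C57BL/6 (median 10.2) and from 7.73 to 13.8 CPM in *Winnie* mouse brains (median 10.5). *Winnie* brains lay on both sides of the C57BL/6 median, 5 each way, and the log2 fold change was 0.055 (SE 0.0757, FDR 0.766). The proteases *Lgmn* (mean 100.9 CPM) and *Ctss* (39.3 CPM) had log2 fold changes of 0.014 and -0.028. The lysosomal membrane protein gene *Laptm5* (43.6 CPM), the pore-forming protein gene *Mpeg1* (24.1 CPM) and *Unc93b1*, which carries nucleic acid sensing Toll-like receptors to endosomes (12.7 CPM), had 0.012, -0.10 and -0.032.

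The remaining group of 9 genes, of leukocyte adhesion, cytoskeleton and other functions, was lower in every member, against 49.0% of all genes. Its median log2 fold change was -0.12, and 4 genes (44.4%, against 17.6% of all genes) had an unadjusted p under 0.05. The lists were chosen with earlier results known, so these counts are descriptions only. *Cyth4*, a guanine nucleotide exchange factor gene of blood-lineage cells, ranged from 9.21 to 10.99 CPM in C57BL/6 (median 10.05) and from 7.75 to 10.7 CPM in *Winnie* mouse brains (median 8.99). Below its lowest C57BL/6 value lay 7 of 10 *Winnie* brains, and the log2 fold change was -0.17 (SE 0.0564, limma p = 0.00536, FDR 0.0961). *Ly86*, which encodes the MD-1 partner of a Toll-like receptor homolog, ranged from 7.65 to 10.3 CPM in C57BL/6 (median 8.95) and from 6.54 to 9.56 CPM in *Winnie* mouse brains (median 7.43). Its log2 fold change was -0.21 (SE 0.0748, limma p = 0.0102, FDR 0.131).

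*Cd53*, a leukocyte tetraspanin gene, ranged from 5.47 to 8.41 CPM in C57BL/6 (median 6.42) and from 4.45 to 7.04 CPM in *Winnie* mouse brains (median 5.70), at a log2 fold change of -0.21 (SE 0.0797, limma p = 0.0118, FDR 0.141). *Aif1*, the gene of the cytoskeletal protein IBA1 that is stained to show microglia, ranged from 1.68 to 2.97 CPM in C57BL/6 (median 1.99) and from 1.14 to 2.31 CPM in *Winnie* mouse brains (median 1.75). Below the C57BL/6 median lay 7 *Winnie* brains, and the log2 fold change was -0.24 (SE 0.112, limma p = 0.0387, FDR 0.252). The other members of the group had log2 fold changes of -0.12 for *Olfml3* (mean 19.1 CPM), -0.11 for *Hpgds*, the hematopoietic prostaglandin D synthase gene (4.63 CPM), -0.057 for *Itgam*, the CD11b integrin gene (20.1 CPM), -0.027 for *Ptprc* (3.10 CPM) and -0.0061 for *Bin2* (3.56 CPM).

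**Figure D5:**
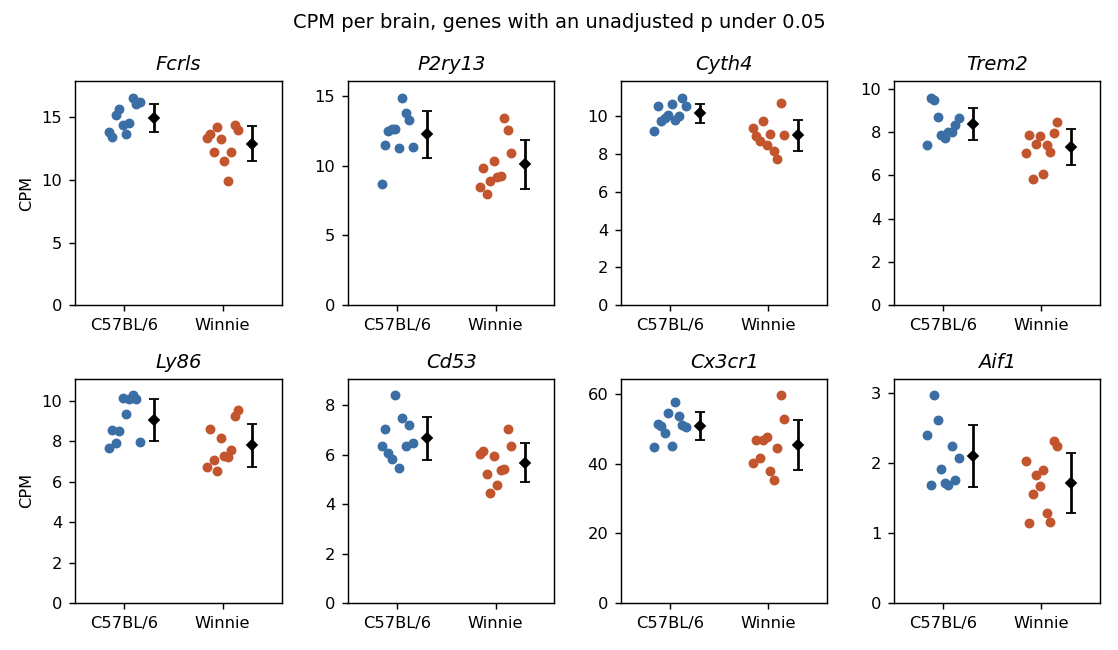
Each point is the CPM of 1 brain, and diamonds with bars show mean ± SD of 10 brains, for the 8 microglia genes with an unadjusted p under 0.05. All 8 have a lower *Winnie* mean and overlapping ranges, and none had an FDR under 0.05 in limma.

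The microglia genes varied together across brains of the same genotype more often than in opposite directions. After the genotype means were subtracted, the 595 pairs of these genes had a median Pearson r of 0.31 over 20 brains, with 86.2% of pairs positive, against a median of 0.036 and 54.9% positive over all pairs of genes in the table. These are descriptions, since genes share the library and depth of a brain. The highest pair was *Mpeg1* and *Unc93b1* (r = 0.81), and *P2ry12* with *Cx3cr1* reached 0.79. The pair lowest in r was *Olfml3* and *Irf8* (-0.53). The neighbours *P2ry12* and *P2ry13* had an r of 0.69, *Trem2* and *Tyrobp* 0.36, and the C1q pairs 0.44 for *C1qa* with *C1qb*, 0.50 for *C1qa* with *C1qc* and 0.61 for *C1qb* with *C1qc*.

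Against the mean of the other 34 microglia genes, *Cx3cr1* (r = 0.89), *Unc93b1* (0.85), *Laptm5* (0.82) and *Tyrobp* (0.74) followed the set most closely. *Ptprc* (0.071), *Lgmn* (0.089), *Fcgr3* (0.12), *C1qa* (0.14) and *Irf8* (0.14) followed it least. The within-genotype SD on the log2 scale had a median of 0.149 over the 35 genes, from 0.0769 for *Lgmn* to 0.262 for *Aif1*, against 0.147 over all genes. Of genes outside the set with a mean of at least 1 CPM, those most like its mean in the 20 brains included *1700026D08Rik* (r = 0.77), *Fam102a* (0.76), *Clu* (0.76), *Celsr1* (0.76), *Sepw1* (0.76), *Rac2* (0.75), *Aldh3b1* (0.74), *Stk26* (0.73) and *Slc1a3* (0.73). *Slc1a3*, a glutamate transporter gene, is in the list of astrocyte markers, so likeness to the set was not limited to microglia genes.

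Other genes of microglial biology were read from lists of ligands and upstream signals, disease-associated microglia, complement and further microglia-enriched genes, 78 distinct genes in all. At an FDR under 0.05 there was 1, *Cst3*, the cystatin C gene, which astrocytes also express strongly. That is 1.28% of the 78, against 2.52% of all genes, and the 17 with an unadjusted p under 0.05 (21.8%) compare with 17.6% of all genes. *Cst3* ranged from 622 to 782 CPM in C57BL/6 (median 698) and from 544 to 691 CPM in *Winnie* mouse brains (median 637). It fell by 0.17 on the log2 scale (SE 0.0458, limma FDR 0.0439). That call was absent in edgeR, and in 12 of the 20 fits that left out 1 brain, namely C57BL/6 replicates 2, 3, 4, 5, 6, 8 and 9 and *Winnie* replicates 1, 2, 3, 7 and 8.

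Among 18 ligands and upstream signals, such as the CSF1R and CX3CR1 ligands, 11 had a higher mean in *Winnie* mouse brains and none passed the FDR. The share with a lower mean was 38.9%, against 49.0% of all genes. The genes with the smallest p were *Smad3*, a mediator of TGF-beta signaling (log2 fold change 0.13, SE 0.0474, FDR 0.132), and *Nrros*, which anchors latent TGF-beta on microglia (0.24, SE 0.112, FDR 0.262). Of 21 disease-associated microglia genes analysed, 15 had a lower mean (71.4%, against 49.0% of all genes). An unadjusted p under 0.05 was reached by 5 of these (23.8%, against 8.08% of all genes) and by 2 higher ones. The list summed to 4716 to 5444 CPM in C57BL/6, far above the 720 to 802 CPM of the 35 microglia genes. The part of other cells in this list was not tested. *Ctsz*, a lysosomal protease gene, ranged from 25.7 to 31.6 CPM in C57BL/6 and from 22.1 to 30.4 CPM in *Winnie* mouse brains, with a log2 fold change of -0.17 (SE 0.0533, FDR 0.0843). *Hif1a*, the hypoxia-inducible factor gene, had 0.13 (SE 0.0414, FDR 0.0845). The genes *Cst7*, *Itgax*, *Clec7a*, *Ccl3* and *Ccl4* of that list were not analysed here. In the complement list of 12 genes, none passed the FDR and 7 had a higher mean (41.7% lower, against 49.0% of all genes). *C4b*, a gene of the classical pathway, had the smallest p of that list (0.20, SE 0.0711, FDR 0.130). Of 28 further microglia-enriched genes, 15 had a higher and 13 a lower mean, and the median log2 fold change was 0.0043.

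Markers of other cells that could contribute to these transcripts were read beside them. All 10 border-associated macrophage markers analysed had a higher mean in *Winnie* mouse brains (0% lower, against 49.0% of all genes). Their median log2 fold change was 0.15, and none passed the FDR. *Cd163*, the hemoglobin scavenger receptor gene, was at 0.511 ± 0.162 CPM (SD, n = 10) in C57BL/6 and 0.724 ± 0.216 CPM in *Winnie* mouse brains (log2 fold change 0.27, limma FDR 0.189). *Lyve1*, a hyaluronan receptor gene, was at 0.711 ± 0.257 and 0.983 ± 0.286 CPM (0.30, limma FDR 0.199). The summed level of these markers was 32.3 to 47.3 CPM in C57BL/6 and 36.01 to 47.3 CPM in *Winnie* mouse brains. The direction was thus opposite to that of most microglia genes, and the part of these cells in the microglia values was not tested. Only 5 of 20 blood leukocyte markers were analysed and none had an unadjusted p under 0.05.

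Of the major brain cell types, neuron markers were 5 higher and 5 lower, none passed the FDR, and those with the smallest p were *Eno2* (-0.098, limma FDR 0.0594) and *Map2* (0.073, limma FDR 0.276). Astrocyte markers were likewise 5 higher and 5 lower. An unadjusted p under 0.05 was reached by 1 higher and 3 lower (40.0%, against 17.6% of all genes). *Gjb6* (0.22, limma FDR 0.0384) alone passed the FDR, where 2.52% of all genes did. Oligodendrocyte markers had a lower mean in 8 of 10, with a median log2 fold change of -0.048. That share of 80.0% stands beside 77.1% of the microglia genes and 49.0% of all genes. Of the 10, *Olig2* (-0.30, limma FDR 0.0209) fell and *Pdgfra* (0.20, limma FDR 0.0330) rose, where 2.52% of all genes passed the FDR. Endothelial and mural markers had a higher mean in 7 of 10 (30.0% lower, against 49.0% of all genes). Of these 10, *Abcc9* (0.29, limma FDR 0.0468) rose and *Cldn5* (-0.47, limma FDR 0.00331) fell, beside the same 2.52% of all genes. Summed over the list, the microglia genes were at 720 to 802 CPM in C57BL/6 and 682 to 845 CPM in *Winnie* mouse brains, astrocyte markers at 4769 to 5466 and 4816 to 5519 CPM, oligodendrocyte markers at 6725 to 8566 and 6778 to 8085 CPM, and endothelial and mural markers at 253 to 338 and 272 to 328 CPM. All these ranges overlapped, and the part of these cell types in the microglia values was not tested.

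*Winnie* brains labelled female and male were compared with each other, 5 against 5, since their labels went with the sex-linked transcripts. No microglia gene passed an FDR under 0.05 in limma, where 0.116% of all genes did, and edgeR also gave 0. An unadjusted p under 0.05 was reached by 3 (8.57%), against 9.81% of all genes, and edgeR gave the same number. Females had the lower mean in 25 genes and the higher in 10, with a median log2 difference of -0.047, against -0.010 over all genes. This direction rested on the male replicate 9, since without it females were lower in 15 genes and the median was 0.014, and without the female replicate 3 the median was -0.016, without the male replicate 10 -0.024, without the female replicate 5 -0.074, without the male replicate 6 -0.084 and without the male replicate 7 -0.082. *Siglech* was at 9.30, 9.63, 9.79, 10.7 and 12.5 CPM in the females and 10.8, 11.3, 11.9, 13.5 and 14.3 CPM in the males, overlapping ranges with a log2 difference of -0.24 (limma FDR 0.377).

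*P2ry13* was at 7.99, 8.49, 8.90, 9.85 and 10.4 CPM in the females and 9.22, 9.23, 10.9, 12.6 and 13.4 CPM in the males, a log2 difference of -0.26 (limma FDR 0.414). *Olfml3* went the other way, with 18.7, 19.4, 19.8, 19.9 and 20.1 CPM in the females and 14.2, 15.2, 18.1, 18.7 and 18.996 CPM in the males, a log2 difference of 0.20 (limma FDR 0.385). The 2 lowest *Olfml3* values of the males were those of *Winnie* replicates 6 and 7, which were also among the lowest brains for the microglia genes as a set.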

How the data were processed

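Brain RNA of 10 C57BL/6 and 10 *Winnie* mice was sequenced by the authors as paired reads of 100 bases. Reads were aligned and summarised with the RNAsik 1.5.4 pipeline against GRCm38, with featureCounts as the gene counter. The submitters' processing notes also name limma. The authors deposited CPM values, made with Degust and scaled to the same sum over the 17211 listed genes, and each gene reaches 0.5 CPM in 4 samples or more. The strandedness of the counting is not given in the sources used here. The numbers of mice given in the methods could not be matched to sample labels, so all 20 samples were used. The value of 1 read was recovered from the CPM steps, and 100% of values were whole reads within 0.05 reads. Each sample sums to the same total, so values are shares of the listed reads. The intervals given with fold changes come from the limma fit, which uses the spread between brains.

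Log2(CPM + 0.5) was compared over all genes with limma 3.58.1 (trend and robust variance) in R 4.3.3, with Benjamini-Hochberg FDR. Differences in the log scale understate changes of low genes. edgeR 4.0.16 and DESeq2 1.42.0 were run on the recovered reads as alternatives, and at an FDR under 0.05 called 514 and 977 genes, against 434 in limma. The methods of the study call genes in edgeR at an FDR under 0.001 and a fold of 1.5 or more. Those cut-offs were applied here to the limma fit only, so the study's own criterion was not repeated. Python 3.11.15 with numpy 2.4.6, pandas 2.3.3, scipy 1.17.1 and matplotlib 3.10.9 was used for the rest. The scripts were tested on simulated data.

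The genes and lists were chosen with earlier results of these data known. Full values are given for genes with an FDR under 0.05, the 6 smallest p, and *P2ry12*, *Tmem119*, *Cx3cr1*, *Csf1r*, *C1qa*, *C1qb*, *C1qc*, *Trem2*, *Tyrobp*, *Cd68*, *Aif1*, *Spi1*, *Irf8* and *Sall1*. The other microglia genes are given by mean and fold change. Of each further list, genes with an FDR under 0.05 or otherwise the 2 with the smallest p are named, and of likeness to the microglia mean the 10 highest. Some genes that these rules name are not reported here. The labels do not say whether replicate numbers pair the mice, and the main comparison treated the brains as unpaired. Alternatives were other pseudocounts (0.1 and 1), a mean of at least 1 CPM, median-ratio and quantile scaling, labelled sex and *Ddx3y* as covariates, a replicate block, subsets by *Xist* and *Ddx3y*, no trend or robust variance, and each brain left out. The interaction of genotype with *Xist* pattern was added after seeing the data. Gene positions and exon lengths are from GENCODE M21, which matched 17128 of 17211 genes, all on the same chromosome.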

Additional observations from a re-analysis of the deposited data

Results flagged for a closer look

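Over both genotypes, 72 sets of 10 brains were examined, 1 for each microglia gene and 1 for their mean in each genotype. A brain lying far from its group was sought by Dixon's criterion on the scale of log2(CPM + 0.5). Chance meets this criterion in about 1 in 20 sets, and 3 met it. The values that follow are CPM, on which the criterion was not applied. *P2ry13* was at 8.675 CPM in C57BL/6 replicate 1, with the nearest C57BL/6 brain at 11.3 CPM. *Tyrobp* was lowest in the same brain, at 7.352 CPM, with the nearest at 9.34 CPM. *Csf1r* was at 89.84 CPM in *Winnie* replicate 9, with the nearest *Winnie* brain at 76.5 CPM.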

How the results depend on the processing

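No microglia gene was called between genotypes in 27 of 35 alternatives. DESeq2 called 1 (*Fcrls*), brains with *Xist* above *Ddx3y* gave 1 (*P2ry13*), an FDR under 0.1 gave 3, and leaving out 1 brain gave 0 to 2. The count at an unadjusted p under 0.05 was 8, was 7 to 11 with 1 brain left out, and was 1 in the 9 brains with *Ddx3y* above *Xist*. The *Winnie* minus C57BL/6 difference in the mean of the 35 genes moved by less than 1 SD in all 26 alternatives. With 1 brain left out, that difference ran from -0.104 without *Winnie* replicate 9 to -0.067 without *Winnie* replicate 7. In the further lists the count of 1 became 4 in DESeq2 and 0 in edgeR, without trend and robust variance, within both subsets by *Xist* and *Ddx3y* and with the replicate block, and was 0 to 2 with 1 brain left out. Comparing *Winnie* females with males gave 0 in all 18 alternatives. *P2ry12* reversed to 0.022 and *Tmem119* to -0.13 in brains with *Ddx3y* above *Xist*, and *Tmem119* ran from -0.015 to 0.034 with 1 brain left out. Same-numbered brains deviated together in 2 of 10 pairs only (r from -0.29 to 0.15). Most of these pairs differed in *Xist* and *Ddx3y* pattern, so the values cannot show whether same-numbered mice share a source. With the replicate block 0 microglia genes were called, 8 had an unadjusted p under 0.05, and calls over all genes were 227 in place of 434, against 977 in DESeq2 and 253 without trend and robust variance. The causes of these differences were not tested. Depth limits *Aif1* most, with as few as 23 reads in a brain.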
